A study of Mus musculus with 9 samples.

Results

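The mouse Zfp genes, whose symbols begin with Zfp and a number, are described here in mNS-5 cells, a clonal adherent neural stem cell line derived from embryonic stem cells, after depletion of the Mediator subunit Med12. Members were chosen by a measured level: a gene belonged to the set if a probe with its symbol had an intensity above 16.9, an estimate of the background limit, on all 9 arrays, and its brightest such probe stood for it. Of 331 Zfp genes with a named probe, 176 (53.2%) met this rule, against 8277 of 19057 genes (43.4%) on the whole array. Zfp128, Zfp758 and Zfp641 lay just inside the limit, with lowest intensities of 17.2, 18.0 and 18.1 on the 9 arrays. Zfp345, Zfp979 and Zfp385c lay just outside, at 16.4, 16.3 and 14.7. Since the rule required a signal on every array, a gene that fell below background on any MED12 KD array could not be a member. Nor could a gene that was below background on any NS control array and rose from there. Of the 155 Zfp genes left out, 67 were above the limit on no array and 88 on some.

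Cells were infected with lentivirus that expressed either a non-specific shRNA (NS control) or a shRNA against Med12 (MED12 KD), selected with puromycin, and harvested 5.5 days after infection. In each of 3 sets 1 control array accompanies 2 knockdown arrays, so that 3 NS control arrays were compared with 6 MED12 KD arrays. The methods state 3 independent preparations of each condition and the labels do not say how the second knockdown array of a set arose, so the p-values may measure partly technical spread. The cells are a single clonal line and a single Med12 shRNA is described.

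Most Zfp genes encode proteins with tandem C2H2 zinc fingers, which contact DNA and in some members RNA or protein. Many also carry a KRAB domain that recruits the corepressor Trim28 and the histone methyltransferase Setdb1, a system known for silencing retroelements and protecting imprints. The symbol is a naming convention and not a domain call, since the Zfp36 family, for example, has CCCH fingers and promotes the decay of mRNAs with AU-rich elements. Mediator bridges transcription factors and RNA polymerase II, and Med12 belongs to its kinase module.

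The promoters of 6 Zfp genes that differed between the groups are shown to set members that rose beside members that fell. They are 6 of the 11 members that passed the test described below. No sequence is shown for Zfp930, Zfp524, Zfp410, Zfp397 and Zfp532. Each is the 250 bases before and 50 bases after the annotated start from RefSeq (GRCm38.p6), written 5′ to 3′ along the gene. Capitals mark matches to a CCAAT box (CCAAT or its reverse complement ATTGG), a GC box (GGGCGG or CCGCCC) or an ETS motif (CCGGAAG or CTTCCGG). Zfp597 (chr16:3872325-3872624, minus strand), Zfp687 (chr3:95015408-95015707, minus strand) and Zfp467 (chr6:48445041-48445340, minus strand) were higher in MED12 KD. Zfp821 (chr8:109705258-109705557, plus strand), Zfp553 (chr7:127232811-127233110, plus strand) and Zfp948 (chr17:21566728-21567027, plus strand) were lower.
Zfp597: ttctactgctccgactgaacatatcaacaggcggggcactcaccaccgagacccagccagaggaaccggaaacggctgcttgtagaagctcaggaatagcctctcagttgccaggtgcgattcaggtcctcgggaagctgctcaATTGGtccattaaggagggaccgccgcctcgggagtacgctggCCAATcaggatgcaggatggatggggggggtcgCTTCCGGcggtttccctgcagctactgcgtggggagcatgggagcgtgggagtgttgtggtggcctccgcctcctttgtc
Zfp687: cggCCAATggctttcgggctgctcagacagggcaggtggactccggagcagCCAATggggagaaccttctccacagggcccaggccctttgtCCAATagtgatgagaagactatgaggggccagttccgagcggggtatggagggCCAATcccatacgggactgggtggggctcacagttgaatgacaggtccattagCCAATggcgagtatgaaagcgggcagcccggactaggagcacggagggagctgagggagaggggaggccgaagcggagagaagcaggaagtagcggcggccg
Zfp467: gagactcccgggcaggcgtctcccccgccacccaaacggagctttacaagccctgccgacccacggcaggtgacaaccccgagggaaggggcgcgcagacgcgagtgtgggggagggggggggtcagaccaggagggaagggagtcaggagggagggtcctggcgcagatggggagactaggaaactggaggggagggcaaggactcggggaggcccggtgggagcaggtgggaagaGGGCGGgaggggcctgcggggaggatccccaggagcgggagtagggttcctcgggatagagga
Zfp821: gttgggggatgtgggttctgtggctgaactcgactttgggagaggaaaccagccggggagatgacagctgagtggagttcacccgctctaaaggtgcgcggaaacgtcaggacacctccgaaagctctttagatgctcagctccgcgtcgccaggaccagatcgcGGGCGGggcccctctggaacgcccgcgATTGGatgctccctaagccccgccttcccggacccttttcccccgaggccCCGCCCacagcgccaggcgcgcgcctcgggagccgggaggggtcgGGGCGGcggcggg
Zfp553: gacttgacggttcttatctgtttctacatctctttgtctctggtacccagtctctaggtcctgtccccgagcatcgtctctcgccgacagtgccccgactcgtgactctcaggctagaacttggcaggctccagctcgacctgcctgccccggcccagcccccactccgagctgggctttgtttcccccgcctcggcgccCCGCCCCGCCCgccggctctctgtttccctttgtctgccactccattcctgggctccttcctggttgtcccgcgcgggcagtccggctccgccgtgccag
Zfp948: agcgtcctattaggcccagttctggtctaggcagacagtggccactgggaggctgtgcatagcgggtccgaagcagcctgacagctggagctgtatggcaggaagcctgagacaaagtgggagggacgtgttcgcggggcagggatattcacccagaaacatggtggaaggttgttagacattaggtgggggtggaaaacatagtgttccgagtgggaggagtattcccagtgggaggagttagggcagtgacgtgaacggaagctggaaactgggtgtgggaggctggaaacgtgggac

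The Zfp687 window held 5 CCAAT boxes and no GC box, and the Zfp597 window held 2 CCAAT boxes and an ETS motif. The Zfp467 window, of a gene that also rose, held 1 GC box and no CCAAT box. Of the genes that fell, Zfp821 had 3 GC boxes and 1 CCAAT box, Zfp553 had 2 overlapping GC boxes and no CCAAT box, and Zfp948 had none of the 3 motifs. Among the 6 genes shown, no motif was thus shared by all those of one direction. A promoter window was found for 143 of the 176 Zfp genes, and the first listed window was searched on both strands, with matches to different motifs allowed to overlap. A GC box occurred in 53.8% of these windows, against 67.9% of the 6820 windows of all tested genes and 35.9% of all 27025 windows. A CCAAT box occurred in 46.2%, 40.0% and 37.9% respectively, and an ETS motif in 20.3%, 20.5% and 9.12%. The YY1 motif AANATGGC was found in 14.7% of Zfp windows, against 9.79% for tested genes and 6.23% for all. Of the other motifs searched, NRF1 was in 7.69% of Zfp windows and 6.25% of tested windows, and E2F in 5.59% and 4.5%. CRE was in 4.2% and 3.56%, the Zfp143 motif in 6.99% and 4.88%, and the TATA box in 8.39% and 6.64%. Over all windows the shares were 2.8% for NRF1, 2.24% for E2F, 1.88% for CRE and 3.45% for the Zfp143 motif. That of the TATA box was 14.2%, above the share in Zfp windows. The median Zfp window held 17 CpG dinucleotides, between the 22 of tested genes and the 7 of all windows. These shares describe letters in the windows and were not tested.

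Med12 itself had intensities of 355, 356 and 267 on the NS control arrays and of 122, 121, 176, 165, 112 and 126 on the MED12 KD arrays. Every knockdown array was below every control array, and the log2 fold change was -1.26 (SE 0.18, limma, Benjamini-Hochberg adjusted p = 0.00171 over 8277 genes). Of 9 neural stem cell markers with a probe, 6 were above background on all arrays and none passed the test between the groups (limma), although 2 had an unadjusted p below 0.05 and their median log2 fold change was -0.27. Vim was at -0.40, with all knockdown arrays below all controls, Fabp7 at -0.50, Olig2 at -0.31, Nes at -0.22, Sox2 at 0.00 and Slc1a3 at 0.21. The summed intensity of the 4 astrocyte markers was 168 to 263 in NS control and 306 to 793 in MED12 KD, with S100b as the marker above background on every array. That of the 6 neuron markers was 5250 to 6220 and 6350 to 8120, with Map2 above background throughout and Rbfox3 and Tubb3 on no array. For 4 fibroblast markers, none above background on all arrays, the sums were 22.2 to 38.5 and 24.0 to 353. The astrocyte and neuron sums and Vim did not overlap between the groups, and the part of the markers in the values below was not tested. In bulk RNA, fewer cells of a type and less RNA per cell cannot be told apart.

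A smaller share of Zfp genes than of all genes passed the test after Med12 depletion. The limma test, with p-values adjusted over all genes and a threshold of 0.05, was passed by 11 of the 176 members (6.25%) and by 14.8% of all tested genes. Without NS control replicate 1, 2 or 3 the count was 5, 6 or 4. With the 2 knockdown arrays of a set averaged it was 6 (3.41%, and 6.78% of all genes), of which 4 were among the 11, and with the set as a replicate block it was 28 (15.9%, and 26.5% of all genes). Of the 11, 4 were higher (2.27% of members, against 8.93% of all genes) and 7 were lower (3.98%, against 5.82%). With each array centred on its median the split was 3 higher and 10 lower, and with quantile normalization repeated it was 2 and 11. Only Zfp930 also changed by 2-fold or more (0.568% of members), where 3.58% of all genes did. Its change was under 2-fold, at -0.95 on the log2 scale, without MED12 KD replicate 1_2, and in 6 of 26 alternative settings in all. All knockdown arrays lay below all control arrays for 14 members (7.95%, against 10.1% of all genes) and above them for 6 members (3.41%, against 11.7% of all genes). An unadjusted p below 0.05 was found for 40 members, 22.7%, and for 31.7% of the 8101 other genes. Members were dimmer than other genes, with median intensities of 191 and 496.

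The log2 fold changes of the members were narrowly spread around a median slightly below 0. Their median was -0.09 (quartiles -0.28 and 0.12) and their SD 0.303, whereas the other genes had a median of -0.01 (quartiles -0.25 and 0.26) and an SD of 0.460. A log2 fold change within 0.5 of 0 was found for 89.8% of members and 79.0% of other genes. The lowest member was at -1.09 and the highest at 0.73. Of the members, 109 of 176 (61.9%) were below 0, against 50.8% of other genes.

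**Figure D1:**
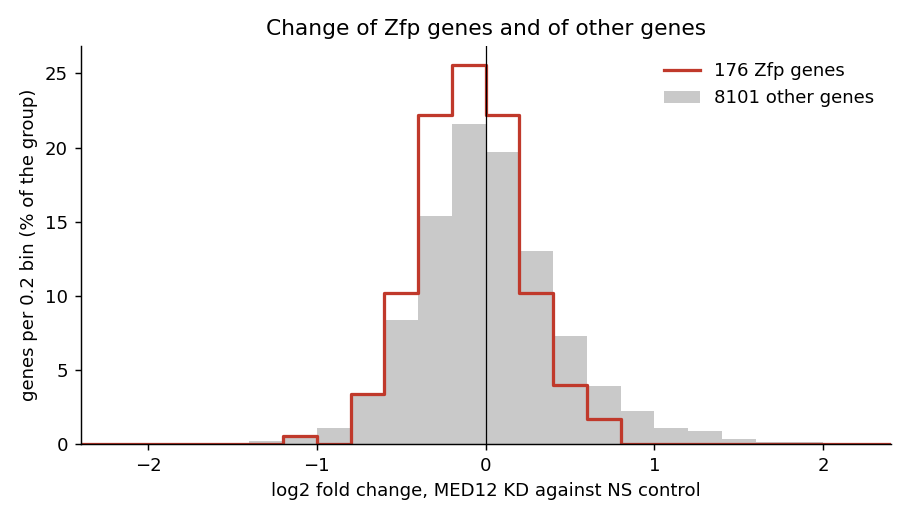
Share of genes (%) in bins of 0.2 by log2 fold change, MED12 KD against NS control, for 176 Zfp genes (red line) and 8101 other genes (grey bars) above background on all 9 arrays. The Zfp genes are more tightly gathered (SD 0.303 against 0.460), with a median of -0.09, and none exceeds 0.73, while the other genes have a longer upper tail.

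With the sets disregarded, the lower median was small beside the spread among the controls. Relative to the control mean, the median member was at 0.13, -0.03 and -0.08 (log2) on NS control arrays 1, 2 and 3. For knockdown replicates 1, 2 and 3, the first series, it was at 0.02, -0.11 and -0.10. For replicates 1_2, 2_2 and 3_2, the second series, it was at 0.00, -0.10 and -0.20. Both knockdown arrays of set 1 thus lay above the control arrays of sets 2 and 3, and below the control array of set 1. In sets 2 and 3 both knockdown arrays were also below the control array of their own set. Without NS control replicate 1 the median change was -0.04, and 52.8% of members were below 0, against 51.1% of other genes.

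**Figure D2:**
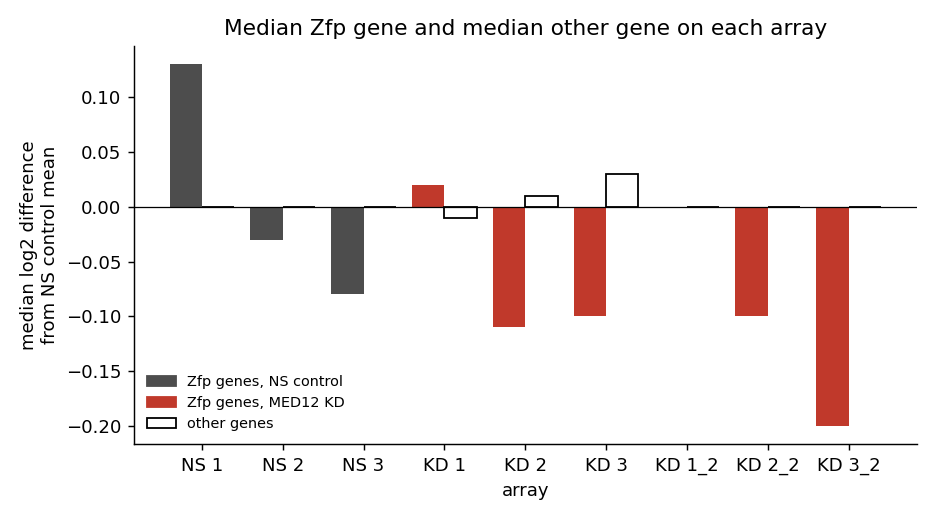
Median log2 difference from the mean of the 3 NS control arrays (y axis) on each array (x axis), for the 176 Zfp genes (filled bars, grey for NS control and red for MED12 KD) and the 8101 other genes (open bars). The controls span -0.08 to 0.13 and overlap the knockdown arrays, which span -0.20 to 0.02. For the Zfp genes, each knockdown array is below the control array of the same set.

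The knockdown mean minus the control of the same set number had a member median of -0.07, -0.06 and -0.11 in sets 1, 2 and 3. In these sets 61.9%, 56.8% and 59.1% of members were lower. The other genes had medians of -0.02, 0.00 and 0.01. In all 3 sets, 58 members were lower (33.0%, against 28.8% of other genes) and 25 were higher (14.2%, against 28.5%).

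The lower median held at each level of intensity. Among the 59 dimmest members, up to a mean intensity of 113, the median log2 fold change was -0.09 (other genes of that range -0.03). Among the 58 members between 113 and 364 it was -0.11 (0.00), and among the 59 brightest it was -0.07 (-0.01). In these ranges 4, 5 and 2 members passed the test (6.78%, 8.62% and 3.39%), against 12.2%, 17.4% and 14.8% of the other genes. The SD of the change was 0.360, 0.275 and 0.267 for members and 0.521, 0.537 and 0.399 for the other genes.

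The largest fall was that of Zfp930, on chromosome 8. Its intensities were 121, 114 and 119 in NS control and 49.1, 68.3, 74.9, 34.5, 55.7 and 59.8 in MED12 KD. The groups did not overlap and the controls were close to each other. The log2 fold change was -1.09 (SE 0.21, limma adjusted p = 0.00889), a level 2.13-fold lower, with changes of -1.56, -0.88 and -0.83 in the 3 sets.

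Zfp948, on chromosome 17, had intensities of 72.4, 71.0 and 81.0 in NS control and 43.2, 63.8, 37.3, 38.3, 36.1 and 45.0 in MED12 KD. Its knockdown replicate 2 stood closest to the controls without reaching them. The log2 fold change was -0.79 (SE 0.18, limma adjusted p = 0.0150). Zfp553 had 156, 150 and 127 in NS control and 73.2, 98.4, 96.6, 71.6, 107 and 102 in MED12 KD. Both set 1 knockdown arrays were the lowest, and the log2 fold change was -0.67 (SE 0.16, limma adjusted p = 0.0204). Zfp821, the member with 3 GC boxes in the window above, had 178, 151 and 148 in NS control and 105, 116, 104, 90.7, 104 and 112 in MED12 KD. All 6 knockdown arrays were below the lowest control, and the log2 fold change was -0.59 (SE 0.12, limma adjusted p = 0.00939).

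Zfp524 had intensities of 185, 216 and 172 in NS control and 138, 112, 152, 106, 137 and 137 in MED12 KD. The groups did not overlap, and the log2 fold change was -0.56 (SE 0.14, limma adjusted p = 0.0277). Zfp410, known as an activator of the nucleosome remodelling gene Chd4, had 426, 421 and 441 in NS control and 324, 305, 334, 302, 314 and 342 in MED12 KD. These were narrow, separate ranges, and the log2 fold change was -0.42 (SE 0.10, limma adjusted p = 0.0182). The other Zfp410 probes above background were at log2 fold changes of -0.47 and -0.60, of which the second passed the test in a limma fit of every probe by itself (adjusted p = 0.148 and 0.0225). Chd4 itself was at 801 ± 110 (SD, n = 3) in NS control and 907 ± 99.3 (SD, n = 6) in MED12 KD (log2 fold change 0.18, limma adjusted p = 0.387). Zfp397, on chromosome 18, had 155, 153 and 154 in NS control and 126, 111, 126, 121, 122 and 112 in MED12 KD. It had the smallest change of the members called lower, at -0.36 on the log2 scale (SE 0.10, limma adjusted p = 0.0361). Its call was lost in 12 of 26 alternative settings.

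The largest rise was that of Zfp597, on chromosome 16, whose human counterpart is an imprinted gene. Its intensities were 474, 446 and 399 in NS control and 862, 725, 631, 881, 654 and 662 in MED12 KD. The lowest knockdown array was well above the highest control, and the log2 fold change was 0.73 (SE 0.14, limma adjusted p = 0.00834), or 1.66-fold. It was higher in each set, by 0.88, 0.63 and 0.70. Zfp467, known as a regulator of the choice between bone and fat cells, had 214, 189 and 158 in NS control and 340, 283, 252, 359, 283 and 216 in MED12 KD. Knockdown replicate 3_2 was barely above the highest control, and the log2 fold change was 0.62 (SE 0.17, limma adjusted p = 0.0384). The call was lost in 14 of 26 alternative settings.

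Zfp687 and Zfp532, partners of the chromatin reader Zmynd8 in a complex that also holds Zfp592, both rose. Zfp687 had intensities of 64.8, 63.5 and 59.4 in NS control and 84, 74.8, 75.6, 106, 86.9 and 84.6 in MED12 KD. Zfp532 had 1366, 1935 and 1733 in NS control and 2280, 2126, 2123, 2461, 2419 and 2098 in MED12 KD. In neither gene did the groups overlap, although the controls of Zfp532 were widely spread. The log2 fold change was 0.44 for both (SE 0.13), with limma adjusted p = 0.0450 for Zfp687 and 0.0480 for Zfp532. Both calls were narrow, and were lost in 17 (Zfp687) and 20 (Zfp532) of 26 alternative settings. A further Zfp532 probe gave 0.36 (adjusted p = 0.154). The third member of the complex, Zfp592, was at 251 ± 71.0 (SD, n = 3) in NS control and 229 ± 51.2 (SD, n = 6) in MED12 KD, with a log2 fold change of -0.12 that did not pass (limma adjusted p = 0.769).

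**Figure D3:**
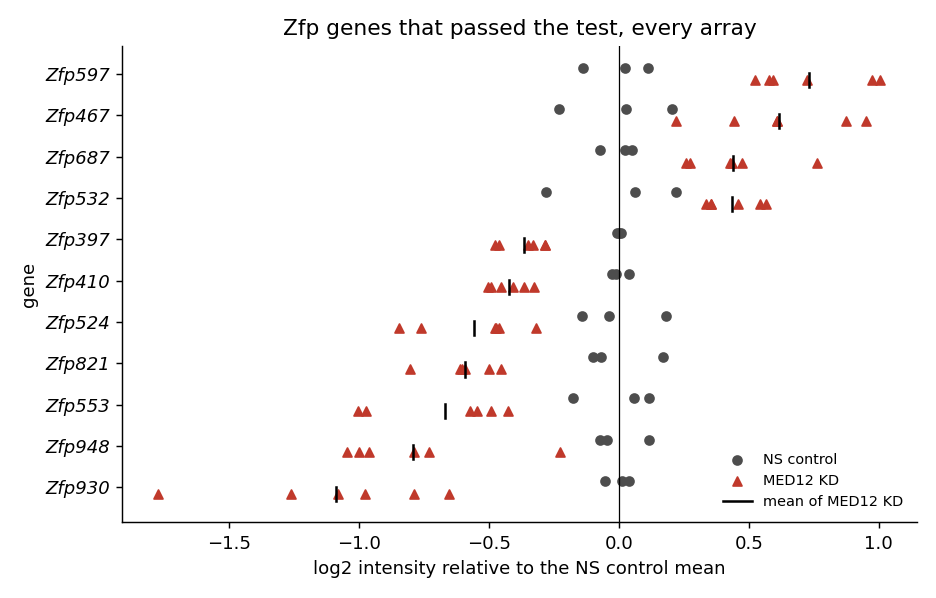
The 11 Zfp genes with a limma adjusted p of 0.05 or less, with the log2 intensity of each array relative to the NS control mean (x axis) for each gene (y axis); grey circles are the 3 NS control arrays, red triangles the 6 MED12 KD arrays and black bars their mean. The groups are separate for all 11 genes, and the mean differences run from -1.09 for Zfp930 to 0.73 for Zfp597.

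Of 9 members that act on mRNA and ribosomes, 0 were called in either direction by limma, against 14.8% of all tested genes. Their median log2 fold change was 0.11, and 2 had an unadjusted p below 0.05. With only 9 genes, a difference from that share was not tested. Zfp36l1, a CCCH protein of mRNA decay, was the brightest member, with 10776, 6925 and 7125 in NS control and 11364, 7467, 7933, 8789, 8288 and 6676 in MED12 KD. The groups overlapped, and the log2 fold change was 0.04 (SE 0.19, limma adjusted p = 0.920). Its relative Zfp36 was at 125 ± 22 (SD, n = 3) and 148 ± 27.5 (SD, n = 6), a difference within the spread (log2 fold change 0.23, limma adjusted p = 0.405). Zfp622, which acts in late assembly of the large ribosomal subunit, had 41.2, 42.9 and 53.6 in NS control and 18.4, 26.4, 32.8, 38.7, 43.6 and 29.5 in MED12 KD. The highest knockdown array lay among the controls (log2 fold change -0.58, limma adjusted p = 0.125).

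The neural and stem cell factors likewise gave 0 of 9 called by limma, against 14.8% of all tested genes. Their median was 0.08, 2 had an unadjusted p below 0.05, and the small group was not tested against that share. Zfp521, which promotes the neural differentiation of embryonic stem cells, had 836, 590 and 600 in NS control and 1062, 714, 652, 1004, 802 and 721 in MED12 KD. Set 1 was the highest in both groups, and the groups overlapped (log2 fold change 0.29, limma adjusted p = 0.322). Zfp703, a transcriptional corepressor, had 200, 148 and 175 in NS control and 243, 206, 236, 425, 259 and 240 in MED12 KD. Its groups did not overlap but knockdown replicate 1_2 was far above the others, and the log2 fold change of 0.59 did not pass (limma adjusted p = 0.0815). Zfp365 was higher in each set, by 0.49, 0.21 and 0.57, but its groups overlapped. Its log2 fold change of 0.42 narrowly missed the threshold (limma adjusted p = 0.0522). Zfp281, Zfp335 and Zfp423 had log2 fold changes of -0.09, 0.08 and 0.13, and Zfp322a, Zfp292 and Zfp369 of -0.18, -0.11 and -0.02.

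Among 11 members listed as chromatin and transcription partners, Zfp687 and Zfp532 passed the test (18.2%, against 14.8% of all tested genes), with a median log2 fold change of 0.16. The list leaves out Zfp410, which passed as lower at -0.42, and Zfp609, which was at -0.53 and did not pass. Zfp148, a factor of GC-rich promoters, had 489, 402 and 346 in NS control and 827, 564, 422, 812, 679 and 533 in MED12 KD. Knockdown replicate 3 lay within the control range, and the log2 fold change of 0.61 did not pass (limma adjusted p = 0.0838). A second Zfp148 probe went the other way, at -0.17 (adjusted p = 0.799 in the fit of every probe). Zfp638, which takes part in silencing unintegrated retroviral DNA, was at 451 ± 5.94 (SD, n = 3) and 464 ± 61.9 (SD, n = 6), and differed by 0.03 on the log2 scale.

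Of 2 members listed for KRAB silencing of imprinted loci or retroelements, Zfp809 and Zfp445, 0 passed the test, against 14.8% of all tested genes. So few genes allow no comparison with that share. Zfp809, which represses murine leukemia proviruses, had 82.7, 71.3 and 62.8 in NS control. MED12 KD replicates 1, 2 and 3 had 72.0, 59.3 and 50, and replicates 1_2, 2_2 and 3_2 had 18.4, 37.9 and 33.3. The second series of knockdown arrays lay below all the controls and the first overlapped them, and the log2 fold change was -0.80 (SE 0.36, limma adjusted p = 0.155). Zfp445, which maintains imprints, was at 172 ± 51.2 (SD, n = 3) and 175 ± 83.2 (SD, n = 6), with a log2 fold change of -0.08 (limma adjusted p = 0.919).

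Of 25 tested genes of the corepressor machinery with which KRAB zinc finger proteins work, 1 was higher and 1 was lower (8% together, against 14.8% of all tested genes), with a median log2 fold change of -0.14. Trim28 was at 4275 ± 419 (SD, n = 3) in NS control and 3881 ± 378 (SD, n = 6) in MED12 KD (-0.14 on the log2 scale, limma adjusted p = 0.462). Setdb1 was at 543 ± 37.1 (SD, n = 3) and 439 ± 40.1 (SD, n = 6) (-0.31, limma adjusted p = 0.0954). The members that passed were Gatad2b, a subunit of the NuRD complex, at 0.90 (limma adjusted p = 0.0345), and the DNA methyltransferase Dnmt3b at -0.41 (limma adjusted p = 0.0262).

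Several larger differences among the members missed the threshold in the fit without a block. Zfp91, a ubiquitin ligase of NF-kB signalling, had 427, 636 and 493 in NS control and 300, 388, 190, 333, 414 and 326 in MED12 KD. All knockdown arrays were below all controls, and the log2 fold change was -0.70 (SE 0.23, limma adjusted p = 0.0653). Zfp105 was at -0.71 (limma adjusted p = 0.0585), Zfp653 at -0.56 (0.0617), Zfp747 at -0.41 (0.0508) and Zfp362 at 0.49 (0.0516). Zfp609, a partner of the cohesin loader Nipbl and of Integrator, was at -0.53 with overlapping groups (limma adjusted p = 0.203). After Zfp36l1 the brightest members were Zfp362, Zfp518b, Zfp523 and Zfp46, with mean intensities of 2507, 2451, 2348 and 2285, and none of them passed.

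**Figure D4:**
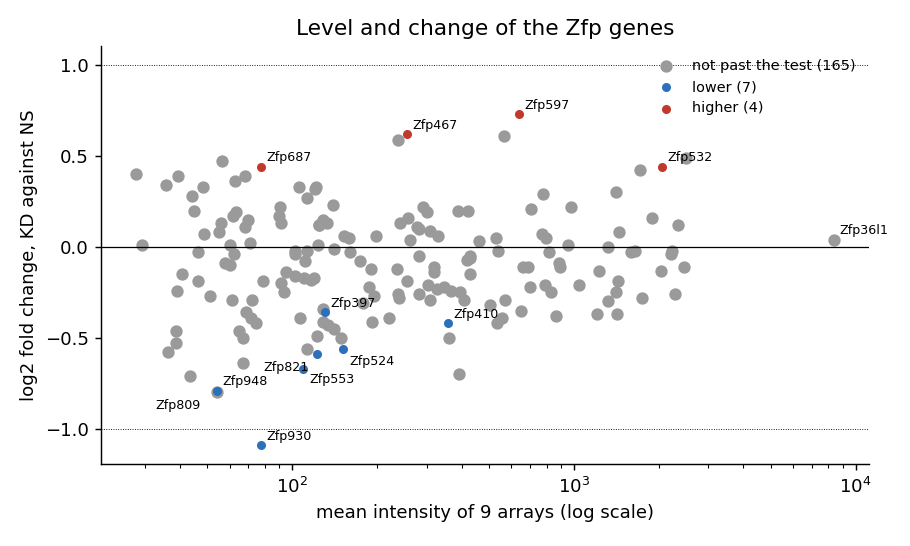
Mean intensity over the 9 arrays (x axis, log scale) and log2 fold change of MED12 KD against NS control (y axis) for the 176 Zfp genes; red points rose (4), blue points fell (7) and grey points did not pass the limma test (165). Dotted lines mark 2-fold, which Zfp930 alone exceeds; the brightest gene, Zfp36l1, is at 0.04.

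Zfp genes often lie in arrays along a chromosome. In each cluster with 4 or more members the log2 fold changes were of both signs, though most did not pass the test. Some smaller clusters went one way. On chromosome 7, Zfp61, Zfp180 and Zfp94 of 1 cluster were at -0.27, -0.25 and -0.15, and Zfp607a and Zfp60 of another at 0.19 and 0.20. Clusters were taken as 3 or more Zfp genes with at most 2 protein-coding genes between them. The 68 members in 26 such clusters had a median log2 fold change of -0.09, and 5 passed the test (7.35%). The 108 members outside had -0.10 and 6 (5.56%), against 14.8% of all tested genes. In 1 cluster on chromosome 17, only Zfp948 passed, at -0.79, with Zfp760 at -0.50, and Zfp758, Zfp820 and Zfp943 at -0.03, 0.01 and 0.21. By the brightest probes, a cluster on chromosome 6 ran from -0.22 for Zfp777 to 0.62 for Zfp467, the only one of its members to pass. A second probe of its member Zfp398 was at -0.96 (adjusted p = 0.0113 in the limma fit of every probe by itself). The brightest Zfp398 probe was at -0.09. Neighbouring Zfp genes can have similar sequences, and cross-hybridization between them was not tested.

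Other zinc finger families are given for comparison. Of 24 Zbtb genes, 3 were higher and 2 lower (20.8% together, against 14.8% of all tested genes), with a median of -0.01. Of 12 Zkscan and Zscan genes, 1 was higher and 2 were lower (25% together, median -0.01), and of 9 Klf and Sp genes, 1 and 2 (33.3%, median 0.05). The difference between these families and the Zfp genes was not tested.

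Of the members, 55 had more than 1 probe above background. In 37 of them every further probe changed in the direction of the brightest, and in 18 at least 1 went the opposite way. Among the Zfp genes left out by the rule, 54 were above background on at least 3 arrays. Among these Zfp979 had intensities of 16.3, 17.6 and 25.6 in NS control and of 34.9, 25.9, 28.5, 32.7, 33.2 and 42.4 in MED12 KD. Since NS control replicate 1 was under the limit and the filter was met through the knockdown arrays, no fold change is given.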

How the data were processed

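Expression was measured on Illumina MouseWG-6 BeadChips in 3 NS control and 6 MED12 KD samples. The deposited intensity values had been background subtracted and quantile normalized by the authors in Genome Studio, and 33.4% to 33.5% of the 45281 probes of an array are below 0. A symbol was given by the platform annotation to 34885 probes, several symbols to 18 and none to 10378. A second deposited table has 18 columns, 9 of them signals, that matched no single sample and were not used.

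The background limit of 16.9 is the one-sided 0.05 point of a normal distribution (SD 10.3) fitted to the values below 0 mirrored around 0. For each of 8277 genes above it on all 9 arrays, log2 of the brightest probe was fitted with limma 3.58.1 (R 4.3.3; lmFit and eBayes, 2 groups, no covariates), and p-values were adjusted by Benjamini-Hochberg over these genes. Intensities are in arbitrary units, are not comparable between probes, and the number of arrays limits precision. Spreads are SDs over arrays. The fit was tested on simulated data.

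Named genes were the called members, those nearest the limit, the 5 brightest, members of role lists and Trim28 and Setdb1; other names (large changes that missed the threshold, cluster neighbours, Chd4) were chosen after their values were seen. The members and lists were chosen with earlier results of these data known. Alternatives covered the limit, an added constant, normalization, probe summary, the set as a block, each knockdown series, the variance model and each array left out. Gene positions are those of RefSeq, GRCm38.p6.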

Additional observations from a re-analysis of the deposited data

Results flagged for a closer look

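Among the 6 MED12 KD arrays, 3 Zfp genes had an array far from the others by Dixon's test, of 56 gene and group values tested, where chance flags about 1 in 20 groups. Zfp948 was at 63.8 on knockdown replicate 2, against 36.1 to 45.0 on the other knockdown arrays. Zfp703 was at 425 on knockdown replicate 1_2, against 206 to 259. Zfp653 was at 140 on knockdown replicate 3, against 78.1 to 101.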

How the results depend on the processing

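In all 26 alternatives the share of Zfp genes called was below that of all genes tested (members 0.568% to 15.9%, all genes 3.18% to 26.5%) and a larger share of Zfp genes than of other genes was below 0. Of called members, 11 at first, there were 4 when dim probes were not filtered, 6 with the 2 knockdown arrays of a set averaged (4 of them among the 11, the other 7 at adjusted p of 0.0626 to 0.136), 1 with the first knockdown series alone and 4 with the second alone. Those higher, 4 at first, numbered 2 with a limit met on at least 3 arrays, 1 with no filter, 2 with quantile normalization repeated, 2 with every probe by itself, 1 with arrays averaged, 0 and 1 in the first and second series alone, 2 without moderation of the variance and 2 with both set 1 knockdown arrays left out. Those lower, 7 at first, numbered 3 with no filter, 11 with quantile normalization repeated, 1 and 3 in the series alone and 11 without the set 1 knockdown arrays. Leaving out each array in turn gave 4 to 13 called, 1 to 4 higher and 3 to 9 lower, with 5, 6 and 4 called without NS control replicates 1, 2 and 3; the median change of members was -0.15 to -0.04 and 52.8% to 66.5% of members were below 0. With no filter, values under 16 were set to 16, the members' median was 0.00 and 48.9% were below 0, against 34.8% of other genes. The share of other genes below 0 was 53.2% with arrays centred, 53.7% with quantile normalization repeated, 53.2% with the mean of probes and 54.0% with every probe, and their median was -0.03, -0.03, -0.03 and -0.04. Except for the filter, the smaller designs and the left-out arrays, the cause of these shifts was not tested.

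With the set as a replicate block, 28 members were called, 9 higher and 19 lower, among them all 11. The deviations of arrays that share a set number correlated at 0.041 to 0.415. Those of arrays from different sets correlated at -0.315 to 0.133, most of them below 0. Apart from the lowest, the values within a set were 0.161 to 0.415, above every value between sets. Deviations from a group mean sum to 0, so values above 0 within sets go with values below 0 between them. Since not all values within a set were above 0.1, the main fit used no block. Whether the set numbers pair the samples was not settled. Calls were lost in 1 alternative of 26 for Zfp930 and Zfp597, 2 for Zfp821, 3 for Zfp948, 5 for Zfp410, 6 for Zfp553, 7 for Zfp524, 12 for Zfp397, 14 for Zfp467, 17 for Zfp687, 20 for Zfp532 and 0 for Med12, and no direction was turned. The planned split into C2H2 and KRAB members was not run, since no protein sequences were used here. For members near 16.9, signal barely above background limits what can be seen.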
